A study of Mus musculus with 12 samples.

Results

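RNA levels of 8 insulin signalling genes were followed across sorted fat cell precursors of 2 depots: Insr, the insulin receptor gene; Irs1, Irs2 and Irs4, which encode insulin receptor substrates; Pik3r1, which encodes regulatory subunits of PI3-kinase; Akt2, a kinase gene; Tbc1d4, which encodes a Rab GTPase-activating protein; and Slc2a4, the gene of the glucose transporter GLUT4. The genes were taken by symbol from the table of raw counts, whatever their values, and all 8 of the 8 were among the 18855 genes tested, out of 31099 in the table. The cells came from wild-type CD-1 mouse pups of both sexes, pooled, at 3 days of age, with no treatment. The 12 libraries form 4 groups of 3: progenitors and preadipocytes from the perivascular fat of the thoracic aorta, DPP4+ progenitors and ICAM1+ preadipocytes from inguinal white fat. Each library is a pool of mice, and libraries with the same number in the 2 depots came from the same pools, per the labels. How the perivascular cells were gated was not given in the sources used here, so depot and sort gate cannot be told apart in any comparison between depots.

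Insulin binding switches on the tyrosine kinase of the insulin receptor, which phosphorylates receptor substrates. These recruit PI3-kinase through its regulatory subunit, and the lipid it makes leads to activation of AKT2. In fat and muscle, AKT2 phosphorylates and so restrains TBC1D4, which lets vesicles carrying GLUT4 move to the cell surface and take up glucose. IRS1 and IRS2 are the widely used substrates, whereas IRS4 has a narrow tissue distribution. GLUT4 is a textbook feature of differentiated adipocytes and of skeletal and heart muscle, and GLUT1 (Slc2a1) is the transporter of many growing and undifferentiated cells.

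Total counts ran from 15614628 to 25674461 a library. Levels are given as CPM, counts relative to library size after scaling by TMM factors (0.744 to 1.22), and differences as log2 fold changes, positive where the first group named is higher. The inguinal sort markers followed the labels: Dpp4 was at 1510 CPM in DPP4+ progenitors and 32.0 in ICAM1+ preadipocytes, and Icam1 at 61.7 and 497. Perivascular progenitors held 89.4 CPM of Dpp4 and 96.0 of Icam1, and perivascular preadipocytes 5.08 and 39.5. With Pdgfra, Pdgfrb and Ly6a, all 5 surface markers listed were called lower in perivascular than in ICAM1+ preadipocytes. In the perivascular step 4 of the 5 fell and 0 rose. Mean Ly6a was at 4.18 CPM in perivascular preadipocytes, 438 in perivascular progenitors and 842 in ICAM1+ preadipocytes. Summed over 10 adipocyte markers, levels were 1010 to 1440 CPM in DPP4+ progenitors, 4350 to 4840 in ICAM1+ preadipocytes and 1970 to 2070 in perivascular progenitors. In the perivascular preadipocytes that sum was 3130, 6800 and 7550 CPM in libraries 1, 2 and 3. Of the 10 adipocyte markers, 8 were called higher and 1 lower in perivascular than in ICAM1+ preadipocytes. Adipoq, the adiponectin gene of mature fat cells, was at 322, 872 and 1100 CPM against 21.2 to 32.6. In the other direction, mean Lpl was at 2110 against 3030 CPM and mean Cd36 at 490 against 839. The 6 cardiac muscle markers in the table summed to 14.7, 72.7 and 132 CPM in the perivascular preadipocytes and to at most 12.9 in any other library, and the 4 mast cell markers to 248 CPM in DPP4+ library 2 against 47.1 and 56.0 in libraries 3 and 1. Perivascular progenitor library 1 and perivascular preadipocyte library 1 had the lowest mean correlation with their own group (0.956 and 0.963). DPP4+ library 2, with the high mast cell sum, did not stand apart by this measure (0.9727, against 0.9738 and 0.9698 in libraries 1 and 3). Results are given without these 3 libraries, called below the libraries that stood apart, where that changes a call. The 5 mesothelial markers summed to 112 to 199 CPM in perivascular progenitors and 27.2 to 62.8 in perivascular preadipocytes, against 26.6 to 32.6 in DPP4+ progenitors and 10.1 to 17.2 in ICAM1+ preadipocytes.

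The genes moved one by one, in both directions. Perivascular progenitors, compared with DPP4+ progenitors, had more Irs4, Slc2a4 and Pik3r1 and less Irs1, so 4 of 8 genes were called (adjusted p under 0.05) against 24.9% of all genes tested. Of the mesothelial markers, 4 of 5 were also higher there (median log2 5.64) and 4 of 5 were higher, 1 lower, in perivascular preadipocytes against ICAM1+ ones (4.96), and their part in the depot differences was not tested. Perivascular preadipocytes, compared with ICAM1+ preadipocytes, had more Irs4, Slc2a4 and Tbc1d4 and less Irs1 and Irs2, which is 5 of 8 against 44.9%. From progenitor to preadipocyte, Irs4, Slc2a4 and Tbc1d4 rose and Irs1 fell in perivascular fat (4 of 8 against 32.9%), while Irs2, Pik3r1 and Slc2a4 rose and Tbc1d4 fell in inguinal fat (4 of 8 against 17.9%). Insr and Akt2 were called in none of these 4 comparisons.

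The median log2 difference of the 8 genes was 0.03 between progenitors (0.05 over all genes tested), 0.20 between preadipocytes (0.04), 0.22 for the perivascular stage step (-0.05) and -0.31 for the inguinal one (0.02). The comparisons share groups, so their values stand side by side and are not independent. Scaling by library totals instead of TMM factors shifts the median of all genes to 0.48, 0.27, 0.12 and 0.40 in the same order, and small differences below are to be read against that shift. The difference between the depots in the stage step (the interaction) was called for 1 of the 8 genes, Tbc1d4, against 15% of all genes. The cells of each library were sorted and pooled, and in such bulk RNA fewer cells that express a gene and less RNA per cell cannot be told apart.

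**Figure D1:**
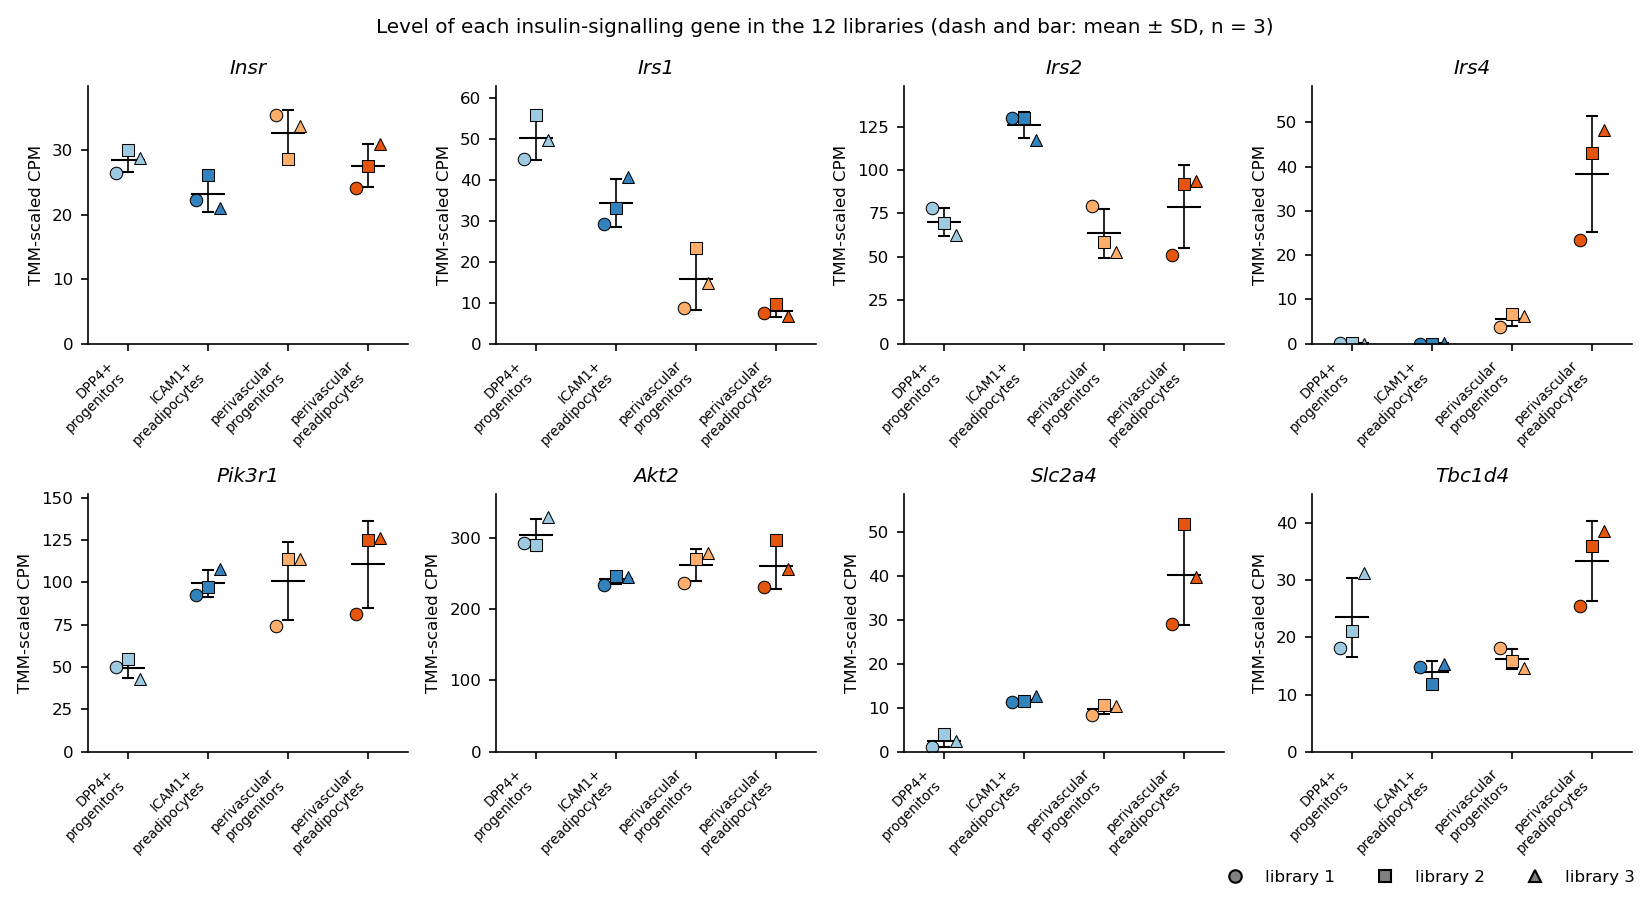
Level of each of the 8 genes (TMM-scaled CPM, linear axis from 0) in each of the 12 libraries, with the mean and SD of each group of 3. Irs4 is near 0 in both inguinal groups and between 23.5 and 48.3 CPM in perivascular preadipocytes, while Irs1 is lowest there, at 6.81 to 9.63 CPM, and Insr and Akt2 stay within narrow ranges.

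**Figure D2:**
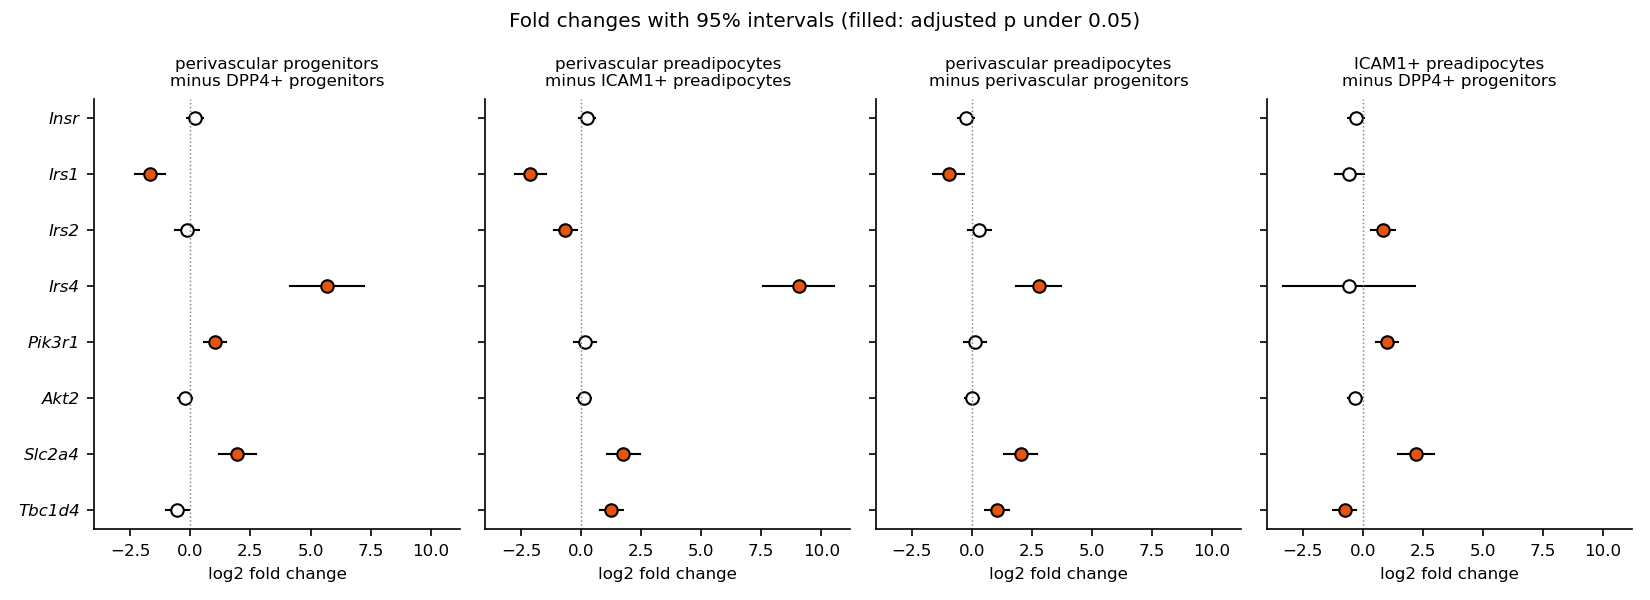
Log2 fold change of each gene in the 4 depot and stage comparisons (dots, filled where the adjusted p is under 0.05) with 95% intervals (lines). Irs4 (5.69 and 9.05) and Irs1 (-1.68 and -2.11) lie on opposite sides of 0 in both comparisons between depots, and the fitted fold of Irs4 against inguinal cells rests on 4 counts in each inguinal group.

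Per kilobase of merged exon, the only scale on which levels of different genes are compared here, Akt2 had the highest level of the 8 genes in each group, with group means of 33.9 to 42.7 CPM per kilobase. Irs2 was at 11.1 in DPP4+ progenitors and 19.9 in ICAM1+ preadipocytes, next below Akt2. In perivascular cells the order of Irs2 and Pik3r1 depended on the length used: in perivascular preadipocytes they were at 12.5 and 11 by merged exons and at 12.5 and 15.5 by the longest transcript. The receptor itself was at 1.69 to 2.38. As a ratio of the highest to the lowest group, Irs4 had the widest range, from 0.0109 CPM per kilobase in ICAM1+ preadipocytes to 6.08 in perivascular preadipocytes, and Slc2a4 the next, from 0.723 in DPP4+ progenitors to 11.5 in perivascular preadipocytes.

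Insr (chromosome 8, 3122061 to 3279617, minus strand, mm10) encodes the receptor that starts the pathway. It stood at 35.5, 28.7 and 33.8 CPM in perivascular progenitors, 26.4, 30.1 and 28.8 in DPP4+ progenitors, 24.2, 27.6 and 30.9 in perivascular preadipocytes, and 22.2, 26.2 and 21.1 in ICAM1+ preadipocytes (libraries 1, 2 and 3). The 4 groups lay close together, and neighbouring groups in this order overlapped. The log2 difference was 0.20 (95% interval -0.13 to 0.53, adjusted p = 0.375) between progenitors and 0.25 (-0.08 to 0.58, adjusted p = 0.196) between preadipocytes. It was -0.25 (adjusted p = 0.232) for the perivascular and -0.29 (adjusted p = 0.223) for the inguinal stage step. Under library totals both depot differences passed, at 0.63 (adjusted p = 0.00796) and 0.48 (adjusted p = 0.0256), on a scale that raises the median of all genes, and the inguinal step turned to 0.08. Only the groups at the ends of the order differed, perivascular progenitors over ICAM1+ preadipocytes, by 0.49 (adjusted p = 0.0469), a comparison in which 4 of the 8 genes and 14.2% of all genes were called. With the pools as a block this became 0.50 with adjusted p = 0.0801, and the call held under 9 of 21 alternatives. It was lost without any 1 of the DPP4+ or ICAM1+ libraries, of perivascular progenitor libraries 1 and 3, or of perivascular preadipocyte library 2 (0.43 to 0.59).

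The receptor's close relatives moved more. Igf1r, the receptor for insulin-like growth factors, was at 24.6, 19.1 and 20.6 CPM in perivascular preadipocytes and at 34.8 to 44.1 in the other 9 libraries. It was lower in perivascular than in ICAM1+ preadipocytes (log2 -0.92 ± 0.14 SE, adjusted p = 0.000345), fell in the perivascular stage step (-0.87, adjusted p = 0.00116), and the 2 stage steps differed (-0.89, adjusted p = 0.0122). Insr thus made up 61.0 ± 5.62% (SD, n = 3) of Insr and Igf1r RNA per kilobase in perivascular preadipocytes, 50.4 ± 5.41% in perivascular progenitors, 46.5 ± 2.33% in DPP4+ progenitors and 41.0 ± 2.28% in ICAM1+ preadipocytes. Insrr, the insulin receptor-related receptor gene, was low throughout, with 24, 24 and 44 counts in perivascular progenitors, 10, 22 and 13 in ICAM1+ preadipocytes, and at most 5 in any library of the other groups. Insrr was higher in perivascular than in DPP4+ progenitors (log2 3.65, adjusted p = 0.00422) but lower in perivascular than in ICAM1+ preadipocytes (-2.20, adjusted p = 0.0277). It fell in the perivascular step (-3.41, adjusted p = 0.0038), and the 2 stage steps differed (-5.86, adjusted p = 0.00391).

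Of the 3 substrate genes, Irs1 was lower and Irs4 higher in perivascular cells at both stages. Irs1 (chromosome 1, 82233101 to 82291416, minus strand) encodes a principal substrate of fat and muscle. It was at 45.1, 55.9 and 49.9 CPM in DPP4+ progenitors, 29.2, 33.3 and 40.8 in ICAM1+ preadipocytes, 8.83, 23.5 and 14.8 in perivascular progenitors, and 7.47, 9.63 and 6.81 in perivascular preadipocytes. All 6 inguinal libraries lay above all 6 perivascular ones. The log2 difference was -1.68 ± 0.29 (SE, adjusted p = 0.000951) between progenitors and -2.11 ± 0.30 (adjusted p = 0.000158) between preadipocytes, each called under all 21 alternative settings. Groups did not overlap in either of these comparisons, which also held for 42.3% and 57.2% of all genes.

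Within a depot the decline of Irs1 with stage was smaller and less firm. In perivascular fat it fell by 0.97 on the log2 scale (adjusted p = 0.0223), with overlapping groups. It did not pass when perivascular progenitor library 2 (-0.61, adjusted p = 0.102) or perivascular preadipocyte library 3 (-0.91, adjusted p = 0.077) was left out, when these 2 groups were fitted alone (-0.95, adjusted p = 0.102) or under library totals (-0.81, adjusted p = 0.0532). In inguinal fat the difference was -0.55 (95% interval -1.15 to 0.06, adjusted p = 0.220), with no overlap between groups, as for 43.8% of all genes. The 2 stage steps differed by -0.43 (adjusted p = 0.492). The inguinal difference passed with limma-voom (-0.55, adjusted p = 0.0232) and with the 2 groups fitted alone (-0.56, adjusted p = 0.00682). Of the exon length of Irs1, 30.9% overlaps the predicted gene Gm9747 on the opposite strand, so reads of both would count together if strand was not used.

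Irs2 (chromosome 8, 10984681 to 11008458, minus strand), the other widely expressed substrate, was highest in ICAM1+ preadipocytes. ICAM1+ preadipocytes held 130, 130 and 117 CPM, perivascular preadipocytes 51.1, 92.0 and 93.8, DPP4+ progenitors 78.3, 69.6 and 62.5, and perivascular progenitors 79.5, 58.3 and 52.9. The 3 ICAM1+ libraries were above the other 9, which overlapped. Groups did not overlap for 57.2% of all genes between preadipocytes and for 43.8% in the inguinal step. Irs2 rose from DPP4+ progenitors to ICAM1+ preadipocytes (log2 0.84 ± 0.22, adjusted p = 0.0197) and was lower in perivascular than in ICAM1+ preadipocytes (-0.67 ± 0.22, adjusted p = 0.0272). Both calls were near the threshold: the first was lost without DPP4+ library 2 or 3 or ICAM1+ library 1 or 2 (adjusted p = 0.0612 to 0.0781), and the second without ICAM1+ library 1 or 2 (adjusted p = 0.0692 and 0.0727) and under library totals (-0.44, adjusted p = 0.152). Between progenitors the difference was -0.14 (-0.63 to 0.34, adjusted p = 0.691), which turned to 0.29 under library totals. In perivascular fat the step was 0.31 (adjusted p = 0.301). It passed, at 0.52 (adjusted p = 0.019), when perivascular preadipocyte library 1 was left out, and at 0.68 (adjusted p = 0.000812) when all 3 libraries that stood apart were. It also passed with limma-voom on all libraries (0.65, adjusted p = 0.000501).

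Irs4 (chromosome X, 141710998 to 141725263, minus strand), which encodes the substrate with the narrowest known expression, was a perivascular transcript in these cells. Counts were 479, 880 and 900 in perivascular preadipocytes and 75, 115 and 116 in perivascular progenitors, against 3, 1 and 0 in DPP4+ progenitors and 0, 0 and 4 in ICAM1+ preadipocytes. As levels, these were 23.5, 43.0 and 48.3 CPM in perivascular preadipocytes and 3.87, 6.62 and 6.28 in perivascular progenitors. The inguinal libraries did not exceed 0.214 CPM, and a count of 0 allows up to 3 counts, or 0.116 to 0.246 CPM in the libraries concerned. From the summed counts the ratio was 54.5 between progenitors (95% counting interval 21.1 to 201) and 585 between preadipocytes (228 to 2150), intervals that cover counting error only. In the edgeR fit the log2 differences were 5.69 ± 0.71 (adjusted p = 7.69e-05) and 9.05 ± 0.68 (adjusted p = 1.64e-06).

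Within perivascular fat Irs4 rose 6.86-fold by summed counts (counting interval 6.08 to 7.75), with a log2 difference of 2.78 ± 0.43 (adjusted p = 0.000853). The 2 groups did not overlap, as for 40.8% of all genes. All 3 of these calls held under the 21 alternatives. In inguinal cells there were 4 counts in each group, too few for a difference to be detectable (log2 -0.58, 95% interval -3.31 to 2.16). The difference between the 2 stage steps was not called (3.35, interval 0.11 to 6.60, adjusted p = 0.147). It passed with DESeq2 (3.4, adjusted p = 0.0201), with limma-voom (4.32, adjusted p = 0.00663) and when ICAM1+ library 3, which holds all 4 counts of its group, was left out (6.72, adjusted p = 0.0439). Markers of other cells also differed between these groups. The 10 adipocyte markers summed to 3130, 6800 and 7550 CPM in perivascular preadipocyte libraries 1, 2 and 3, where Irs4 was at 23.5, 43.0 and 48.3. They summed to 4350 to 4840 CPM in ICAM1+ preadipocytes, where Irs4 did not exceed 0.206. The largest parts of the ICAM1+ sum were Lpl (mean 3030 CPM) and Cd36 (839). Of the 10 adipocyte markers, 8 were called higher and 1 lower in perivascular than in ICAM1+ preadipocytes. Mean Adipoq was at 763 CPM in perivascular and 27.8 in ICAM1+ preadipocytes. The part of the adipocyte markers in the Irs4 result was not tested. Of the 5 mesothelial markers, 4 were higher in perivascular cells at both stages and 1 was lower between preadipocytes. In the perivascular step, where Irs4 rose, 0 mesothelial markers rose and 3 fell. Their part in the Irs4 result was not tested. Of the exon length of Irs4, 6.09% overlaps the antisense gene Gm15295.

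Because Irs1 and Irs4 differ in opposite directions between depots, their upstream sequences are shown, as the 200 bases from 250 to 51 before the RefSeq start, read 5′ to 3′ on the minus strand, from RefSeq on GRCm38.p6. The Irs1 window is chr1:82291490-82291689 and the Irs4 window chrX:141725268-141725467. Capitals mark GC boxes (GGGCGG) and E-boxes (CACGTG), searched on both strands.
Irs1: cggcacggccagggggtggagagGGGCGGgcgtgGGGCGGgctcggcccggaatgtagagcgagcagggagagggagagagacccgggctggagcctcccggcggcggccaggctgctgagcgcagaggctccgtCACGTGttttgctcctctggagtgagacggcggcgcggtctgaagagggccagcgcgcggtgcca
Irs4: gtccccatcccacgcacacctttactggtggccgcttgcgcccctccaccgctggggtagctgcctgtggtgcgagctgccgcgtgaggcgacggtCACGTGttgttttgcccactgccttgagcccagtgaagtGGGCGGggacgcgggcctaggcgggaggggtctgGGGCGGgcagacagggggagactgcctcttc

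Both windows held the same 2 kinds of motif. Each window held 2 GC boxes and 1 E-box. Of 32817 RefSeq promoter windows of this length, 24.6% held at least 1 GC box and 4.34% at least 1 E-box. In Irs1 the GC boxes begin 227 and 216 bases and the E-box 115 bases before the start, and in Irs4 the GC boxes begin 115 and 81 bases and the E-box 154 bases before it. The GC content was 73.5% for Irs1 and 69.0% for Irs4. Neither window held TATAAA (9.14% of windows), CCAAT (28.4%), the palindromic EBF motif (0.612%), the C/EBP motif TTGCGCAA (0.128%), the FOXO motif TGTTTAC (2.57%), the PPAR direct repeat (0.0244%) or the CRE TGACGTCA (0.829%). Irs2 held 2 CCAAT and 1 GC box in its window. A match describes letters in the window and does not show that a factor binds there. The windows end 51 bases before the start, so motifs nearer to it, TATAAA among them, could not be seen. RefSeq entries were matched for 6 of the 8 genes, and Insr and Slc2a4 had none in the table used.

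Expressed as shares of substrate RNA per kilobase, the make-up differed by group while Irs2 was the largest part in each. Irs4 took 31.0 ± 1.76% in perivascular preadipocytes (29.6, 30.5 and 33.0 in libraries 1 to 3) and 7.21 ± 2.52% in perivascular progenitors, against 0.0889 ± 0.0994% in DPP4+ progenitors and 0.0472 ± 0.0817% in ICAM1+ preadipocytes. The share in perivascular preadipocytes varied little although the level of Irs4 in library 1 was the lowest of the 3. Irs1 took 4.79 ± 1.63% in perivascular preadipocytes, 13.8 ± 6.64% in perivascular progenitors, 16 ± 3.03% in ICAM1+ preadipocytes and 33.2 ± 4.16% in DPP4+ progenitors. Irs2 took 64.2 ± 0.572% in perivascular preadipocytes and 84.0 ± 3.11% in ICAM1+ preadipocytes. The summed level of the 3 substrates was 12.7 ± 1.59 CPM per kilobase in perivascular progenitors, 16.6 ± 1.10 in DPP4+ progenitors, 19.4 ± 5.91 in perivascular preadipocytes and 23.6 ± 0.536 in ICAM1+ preadipocytes. These shares are descriptions and were not tested.

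**Figure D3:**
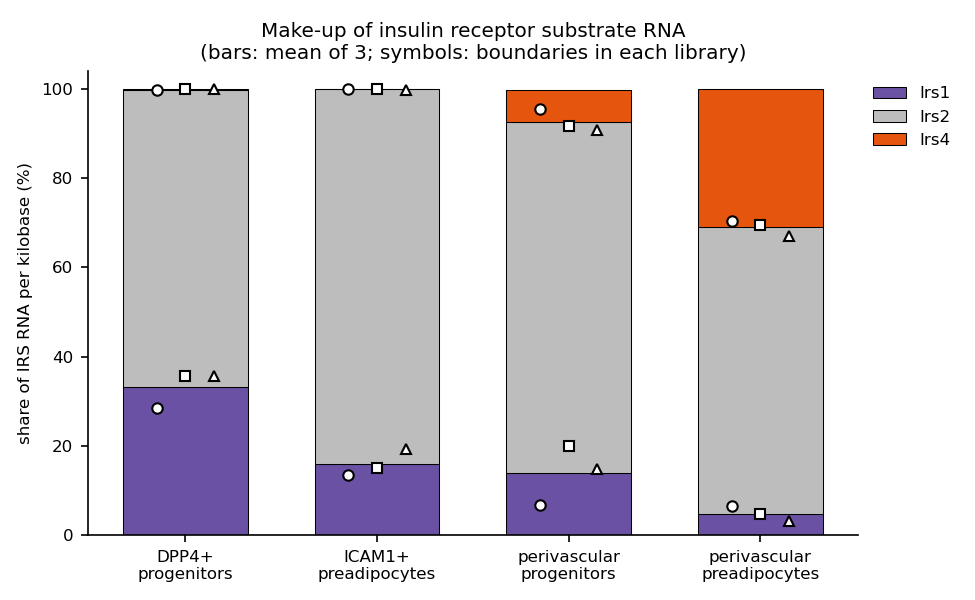
Shares of Irs1, Irs2 and Irs4 in insulin receptor substrate RNA per kilobase (bars, mean of 3 libraries), with symbols for the boundaries in each library. The Irs4 segment is 31.0% in perivascular preadipocytes, 7.21% in perivascular progenitors and under 0.1% in both inguinal groups, while the Irs1 segment is 33.2% in DPP4+ progenitors and 4.79% in perivascular preadipocytes.

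Pik3r1 (chromosome 13, 101680563 to 101768217, minus strand) encodes the p85 alpha subunit that docks PI3-kinase on phosphorylated substrates, and its shorter forms. It separated the DPP4+ progenitors from the other cells. DPP4+ progenitors held 50.2, 55.0 and 42.9 CPM, ICAM1+ preadipocytes 92.7, 97.5 and 108, perivascular progenitors 74.0, 114 and 114, and perivascular preadipocytes 81.1, 125 and 126. The 3 DPP4+ libraries lay below the other 9, and the other 3 groups overlapped. Groups did not overlap for 42.3% of all genes between progenitors and for 43.8% in the inguinal step. Pik3r1 was higher in perivascular than in DPP4+ progenitors (log2 1.03 ± 0.21, adjusted p = 0.00296) and rose from DPP4+ progenitors to ICAM1+ preadipocytes (1.01 ± 0.21, adjusted p = 0.00437), both called under all 21 alternatives. Between preadipocytes the difference was 0.16 (95% interval -0.29 to 0.60, adjusted p = 0.556) and in the perivascular step 0.14 (-0.31 to 0.58, adjusted p = 0.642). The 2 stage steps differed by -0.87 (adjusted p = 0.0625). That difference passed, at -1.09 (adjusted p = 0.00763), when perivascular progenitor library 1 was left out, and at -1.0 (adjusted p = 0.000491) when all 3 libraries that stood apart were. It also passed under library totals (-1.06, adjusted p = 0.0349), with DESeq2 (-0.87, adjusted p = 0.0412) and with limma-voom (-0.82, adjusted p = 0.00147), which called the difference between preadipocytes too (0.31, adjusted p = 0.0171).

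The sister gene Pik3r2, for the p85 beta subunit, ran the other way. It was at 85.0 ± 23.9 CPM in perivascular preadipocytes, 132 ± 11.5 in perivascular progenitors, 144 ± 9.02 in ICAM1+ preadipocytes and 278 ± 54.6 in DPP4+ progenitors, and was called lower in all 4 comparisons (log2 -0.63 to -1.08). Pik3r1 made up 34.7 ± 11.3% of regulatory subunit RNA per kilobase (Pik3r1, Pik3r2 and Pik3r3) in perivascular preadipocytes, 23.3 ± 5.28% in perivascular progenitors, 20.5 ± 1.24% in ICAM1+ preadipocytes and 6.84 ± 1.73% in DPP4+ progenitors. Pik3ca, the catalytic p110 alpha subunit gene, was called in none of the 4 comparisons (-0.39 to 0.01).

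Akt2 (chromosome 7, 27591552 to 27640826, plus strand) encodes the AKT kinase most tied to insulin-stimulated glucose uptake. It was at 293, 290 and 330 CPM in DPP4+ progenitors, 237, 270 and 279 in perivascular progenitors, 231, 297 and 256 in perivascular preadipocytes, and 234, 247 and 245 in ICAM1+ preadipocytes. The DPP4+ libraries lay above those of perivascular progenitors and of ICAM1+ preadipocytes, and the other groups overlapped. In these 2 comparisons groups did not overlap for 42.3% and 43.8% of all genes. Between progenitors the log2 difference was -0.22 (95% interval -0.51 to 0.08, adjusted p = 0.283) and between preadipocytes 0.11 (-0.18 to 0.41, adjusted p = 0.515). The inguinal step was -0.33 (-0.63 to -0.04, adjusted p = 0.122), which turned to 0.05 under library totals. It passed when perivascular preadipocyte library 1 (-0.34, adjusted p = 0.0436) or all 3 libraries that stood apart (-0.39, adjusted p = 0.019) were left out. It also passed with DESeq2 (-0.36, adjusted p = 0.046), limma-voom (-0.31, adjusted p = 0.0134) and the 2 groups alone (-0.35, adjusted p = 0.00561). Between preadipocytes Akt2 passed with limma-voom (0.26, adjusted p = 0.0097). The difference between progenitors also changed sign under library totals (0.22).

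Of Akt1 and Akt2 RNA per kilobase, Akt2 made up 67.9 ± 7.13% in perivascular preadipocytes, 70.5 ± 2.27% in ICAM1+ preadipocytes, 78.1 ± 2.04% in DPP4+ progenitors and 64.2 ± 18.2% in perivascular progenitors. In the last group library 1 lay apart: Akt1, the gene of the more widely used AKT kinase, was at 178 CPM there and at 57.9 and 49.4 in libraries 2 and 3. The share of Akt2 was 43.3, 72.8 and 76.5% in these libraries.

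Tbc1d4 (chromosome 14, 101442360 to 101609191, minus strand), whose protein AS160 holds back GLUT4 vesicles until AKT phosphorylates it, moved in opposite directions with stage in the 2 depots. Perivascular preadipocytes held 25.5, 36.1 and 38.6 CPM and perivascular progenitors 18.2, 15.9 and 14.6, while DPP4+ progenitors held 18.2, 21.1 and 31.3 and ICAM1+ preadipocytes 14.8, 11.9 and 15.3. In each depot the progenitor and preadipocyte libraries did not overlap, as for 40.8% of all genes in the perivascular and 43.8% in the inguinal step. Tbc1d4 rose in perivascular fat (log2 1.04 ± 0.22, adjusted p = 0.00465) and fell in inguinal fat (-0.75 ± 0.23, adjusted p = 0.0352). The difference between the steps was 1.79 ± 0.32 (adjusted p = 0.00322) and was called under all 20 alternatives run.

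The inguinal fall on its own was less stable than that difference. It was called under 12 of 21 alternatives, and with the pools as a block it was -0.73 with adjusted p = 0.0506. Leaving out DPP4+ library 3 (-0.49, adjusted p = 0.175) or ICAM1+ library 2 (-0.64, adjusted p = 0.151) also ended the call, as did library totals (-0.37, adjusted p = 0.233). So did leaving out DPP4+ library 2, ICAM1+ library 1 or 3, or perivascular preadipocyte library 2 (adjusted p = 0.0506 to 0.0856). Between preadipocytes Tbc1d4 was higher in perivascular cells (1.26 ± 0.23, adjusted p = 0.000831, called under all 21 alternatives), and between progenitors the difference was -0.54 (adjusted p = 0.103). The latter passed when perivascular preadipocyte library 1 (-0.56, adjusted p = 0.0475) or all 3 libraries that stood apart (-0.70, adjusted p = 0.024) were left out. Tbc1d1, which encodes a related Rab GTPase-activating protein, rose in both steps, by 0.49 (adjusted p = 0.0307) and 0.60 (adjusted p = 0.0178), with an interaction of -0.11 (adjusted p = 0.757). Tbc1d4 was 61.5 ± 6.71% of the RNA of both per kilobase in perivascular preadipocytes, 61.0 ± 5.60% in DPP4+ progenitors, 52.5 ± 2.91% in perivascular progenitors and 38.3 ± 4.16% in ICAM1+ preadipocytes.

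Slc2a4 (chromosome 11, 69942539 to 69948188, minus strand), the GLUT4 gene at the end of the pathway, was called in all 4 comparisons. It was at 29.1, 51.7 and 39.7 CPM in perivascular preadipocytes, 11.4, 11.5 and 12.6 in ICAM1+ preadipocytes, 8.42, 10.7 and 10.3 in perivascular progenitors, and 1.14, 4.02 and 2.38 in DPP4+ progenitors. The perivascular preadipocytes were the highest and the DPP4+ progenitors the lowest, with no overlap between any of the 4 groups. In the 4 depot and stage comparisons, groups did not overlap for 40.8 to 57.2% of all genes either. Slc2a4 rose with stage in both depots, by 2.03 ± 0.32 in perivascular (adjusted p = 0.000891) and 2.24 ± 0.35 in inguinal fat (adjusted p = 0.000596), and the interaction was -0.20 (95% interval -1.19 to 0.79, adjusted p = 0.795). At matched stage it was higher in perivascular cells, by 1.96 ± 0.35 between progenitors (adjusted p = 0.00116) and 1.76 ± 0.32 between preadipocytes (adjusted p = 0.000825). All 4 calls held under the 21 alternatives. For the middle groups, perivascular progenitors against ICAM1+ preadipocytes, the difference was -0.27 (95% interval -0.95 to 0.41, adjusted p = 0.623). Between the ends, perivascular preadipocytes against DPP4+ progenitors, it was 4.0 (adjusted p = 2.33e-06), in a comparison that called 4 of the 8 genes and 53.2% of all genes.

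Markers of fat and cardiac muscle cells also rose in the perivascular step. Of the 10 adipocyte markers, 9 rose and 0 fell in the perivascular step, and 6 rose and 1 fell in the inguinal one. Of the 6 cardiac markers 5 rose and 0 fell in the perivascular step (median log2 2.69). In the inguinal step 0 of them rose and 0 fell (median log2 0.34). Of the 5 skeletal muscle markers tested, 0 rose and 1 fell in the perivascular step, and 1 rose in the inguinal one. The skeletal muscle markers summed to 6.60 to 19.0 CPM in all libraries. The 7 thermogenic fat markers summed to 150, 463 and 448 CPM in perivascular preadipocytes and to at most 30.9 elsewhere. The part of these markers in the Slc2a4 result was not tested. Within the perivascular preadipocytes, library 1 had the lowest level of Slc2a4 (29.1 CPM) and the lowest sums of the adipocyte, thermogenic and cardiac markers. Library 3 had the highest adipocyte and cardiac sums (7550 and 132 CPM). Library 2 had the highest thermogenic sum (463 CPM) and the most Slc2a4 (51.7 against 39.7 CPM in library 3). Mean Slc2a4 was 9.8 CPM in perivascular progenitors and 11.8 in ICAM1+ preadipocytes, and their adipocyte sums were 1970 to 2070 and 4350 to 4840. Single adipocyte markers differed in both directions between these groups. In the same order, mean Lpl was 1530 and 3030 CPM, Cd36 80.8 and 839, and Fabp4 243 and 568. Mean Adipoq was 92.5 and 27.8 CPM, Plin1 11.3 and 4.94, and Cidec 7.0 and 3.41.

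The balance of the GLUT1 and GLUT4 genes differed between groups. Slc2a1, the GLUT1 gene, was at 27.4, 29.4 and 20.2 CPM in DPP4+ progenitors and between 8.23 and 13.8 in the other 9 libraries. It was lower in perivascular than in DPP4+ progenitors (log2 -1.55 ± 0.19, adjusted p = 6.73e-05), fell in the inguinal step (-1.09, adjusted p = 0.00117), and was at 0.51 in the perivascular step (adjusted p = 0.0506), with an interaction of 1.60 (adjusted p = 0.00195). Of GLUT1 and GLUT4 RNA per kilobase, Slc2a4 made up 75.8 ± 3.91% in perivascular preadipocytes, 52.9 ± 5.24% in perivascular progenitors, 49.9 ± 4.03% in ICAM1+ preadipocytes and 8.93 ± 4.30% in DPP4+ progenitors.

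**Figure D4:**
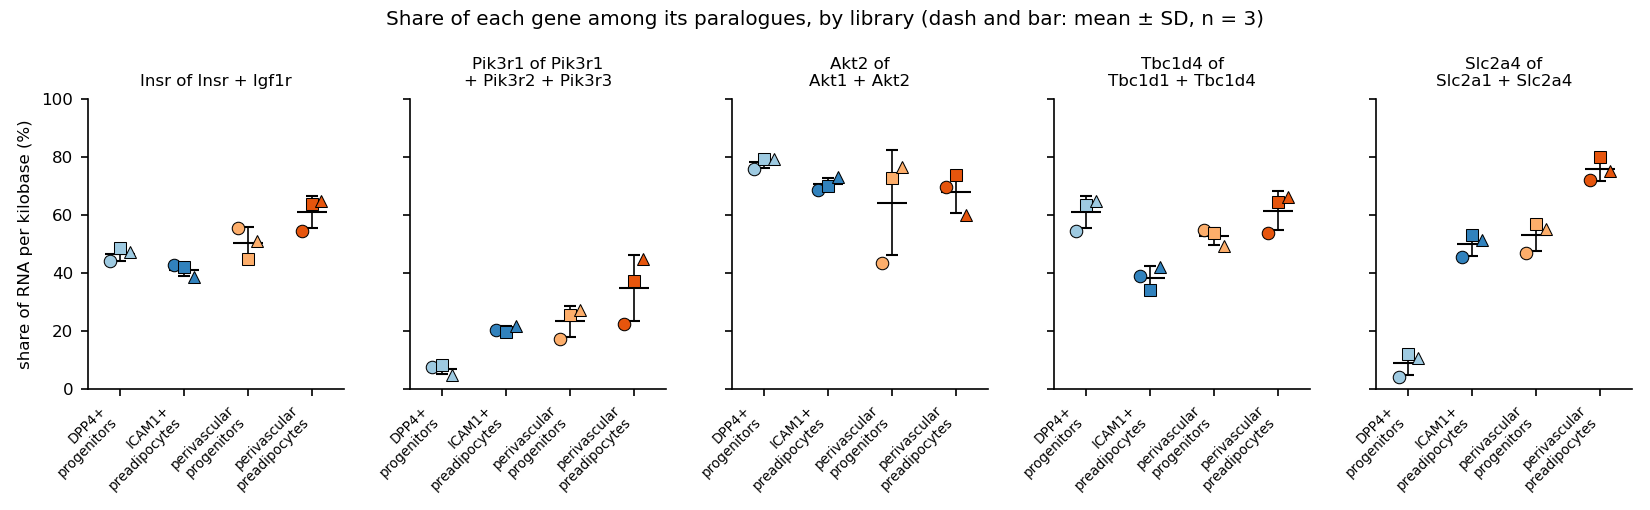
Share of Insr, Pik3r1, Akt2, Tbc1d4 and Slc2a4 in the RNA per kilobase of each gene and its relatives, by library, with the mean and SD of each group of 3. Slc2a4 goes from 8.93% in DPP4+ progenitors to 75.8% in perivascular preadipocytes and Pik3r1 from 6.84% to 34.7%, while Akt2 in perivascular progenitor library 1 sits at 43.3%, below the other 11 libraries.

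Across the 12 libraries, which share groups and pools, the log2 levels of Irs1 and Irs4 ran most strongly against each other among the 28 pairs of these genes (Pearson r = -0.899), and those of Pik3r1 and Slc2a4 most strongly together (r = 0.837). Among 11175 genes at 5 CPM or more in their highest group, the genes with the most similar profile to Irs4 were Pum3 (r = 0.987), Mmd2 (0.985) and Nipsnap1 (0.979), and to Slc2a4 Ephx2 (0.983), Casp6 (0.979) and Rxrg (0.979). Those most like Irs1 were Mroh1 (0.979), Tns1 (0.974) and Engase (0.972), and most like Pik3r1 Srek1 (0.976), Blm (0.962) and Prr11 (0.955). For Tbc1d4 they included Mcrs1 (0.952) and Prxl2b (0.95). They were, for Akt2, Pgd (0.919), Uevld (0.914) and Ints5 (0.912), for Irs2 Irf1 (0.914), Rbbp6 (0.913) and Rogdi (0.912), and for Insr Rpusd1 (0.882), Zfp386 (0.879) and Pdcd4 (0.866). By Spearman rank the 3 most similar genes were Immt, Pold3 and Rdh12 for Irs4, and Nolc1, Rasl12 and Ly6h for Slc2a4. For both genes 0 of the 3 were shared with those named above. A high correlation does not mean a change of like size: group means of Pum3 ran from 42.8 to 77.6 CPM and those of Irs4 from 0.0685 to 38.3. These are descriptions over 12 libraries in 4 groups.

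The rest of the pathway, 78 genes in 6 lists, was called about as often as genes in general. Between progenitors 10 were higher and 13 lower in perivascular cells (29.5% called, against 24.9% of all genes), and between preadipocytes 12 and 22 (43.6% against 44.9%). In the stage steps 9 rose and 15 fell in perivascular fat (30.8% against 32.9%), and 6 rose and 8 fell in inguinal fat (17.9% in both). The split by direction depends on the scale: under library totals it was 21 higher and 3 lower between progenitors, 15 and 15 between preadipocytes, 18 and 9 in the perivascular step and 20 and 4 in the inguinal step. When the 3 libraries that stood apart were left out it was 11 and 28, 15 and 27, 26 and 26, and 13 and 15.

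Among the 15 receptors and docking adaptors, 3 were higher and 2 lower between progenitors, and 2 higher and 7 lower between preadipocytes. Sh2b2, which encodes the adaptor APS that binds the activated insulin receptor, was at 21.7, 43.9 and 44.1 CPM in perivascular preadipocytes, 7.23, 3.28 and 2.49 in perivascular progenitors, and at most 1.90 in any inguinal library. It was higher in perivascular cells at both stages (log2 1.84, adjusted p = 0.0419, and 4.95, adjusted p = 6.75e-05) and rose in the perivascular step (3.07, adjusted p = 0.00159). Gab2, a docking adaptor gene, was higher in perivascular progenitors (1.19), and Cblb, a ubiquitin ligase gene, was lower in perivascular preadipocytes (-1.53).

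Of 14 restraints on the receptor and its lipid signal, 3 were higher and 4 lower between progenitors and again between preadipocytes. Grb10 and Grb14, adaptors that inhibit the insulin receptor kinase, differed between depots in opposite directions. Grb14 was at 32.2, 15.4 and 14.6 CPM in perivascular progenitors and 27.0, 21.1 and 17.0 in perivascular preadipocytes, against 0.929 to 3.60 in the 6 inguinal libraries (log2 3.82, adjusted p = 1.22e-05, and 2.81, adjusted p = 6.24e-05). Grb10, an imprinted gene, was at 1550 ± 34.7 CPM in DPP4+ progenitors, 794 ± 251 in perivascular progenitors, 657 ± 33.0 in ICAM1+ and 222 ± 67.7 in perivascular preadipocytes, and was called lower in all 4 comparisons (-0.96, -1.56, -1.84 and -1.24). Enpp1, which encodes a membrane phosphodiesterase that can inhibit the receptor, was higher in perivascular progenitors (3.04) and rose in the inguinal step (2.16), and Trib3, which encodes an AKT-binding pseudokinase, was lower and fell there (-2.02 and -2.27).

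Among 14 PI3-kinase, AKT and mTOR kinase genes, 2 were higher and 3 lower between progenitors and 2 and 4 between preadipocytes. Deptor, an mTOR inhibitor gene, was higher in perivascular progenitors (1.22) and rose in the inguinal step (1.92). Of 13 AKT and mTORC1 targets, Pde3b, which encodes the phosphodiesterase through which insulin lowers cyclic AMP in fat cells, was higher in perivascular cells at both stages (1.91 and 2.08) and rose in the perivascular step (1.45, adjusted p = 0.0172). In the inguinal step the median log2 change of these 13 was 0.05. Foxo1, a transcription factor gene whose protein AKT shuts out of the nucleus, was called in none of the 4 comparisons (0.15 to 0.21), nor was Akt1 (-0.40 to 0.96).

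Of 16 GLUT4 traffic genes, 1 was higher and 1 lower between progenitors, and 3 and 4 between preadipocytes. Sort1, the sortilin gene for a receptor of GLUT4 vesicles, was higher in perivascular cells at both stages (1.92 and 0.95) and rose in the inguinal step (1.67). Ralgapa2, whose product acts on Ral GTPases, and Rala itself were higher in perivascular preadipocytes (1.29 and 1.59), while Myo1c, a motor protein gene, was lower there (-1.42). Of the 6 other glucose transporters, 2 were lower between progenitors and 1 between preadipocytes, and Slc2a10 was lower in perivascular than in ICAM1+ preadipocytes (-0.98, adjusted p = 0.0161).

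**Figure D5:**
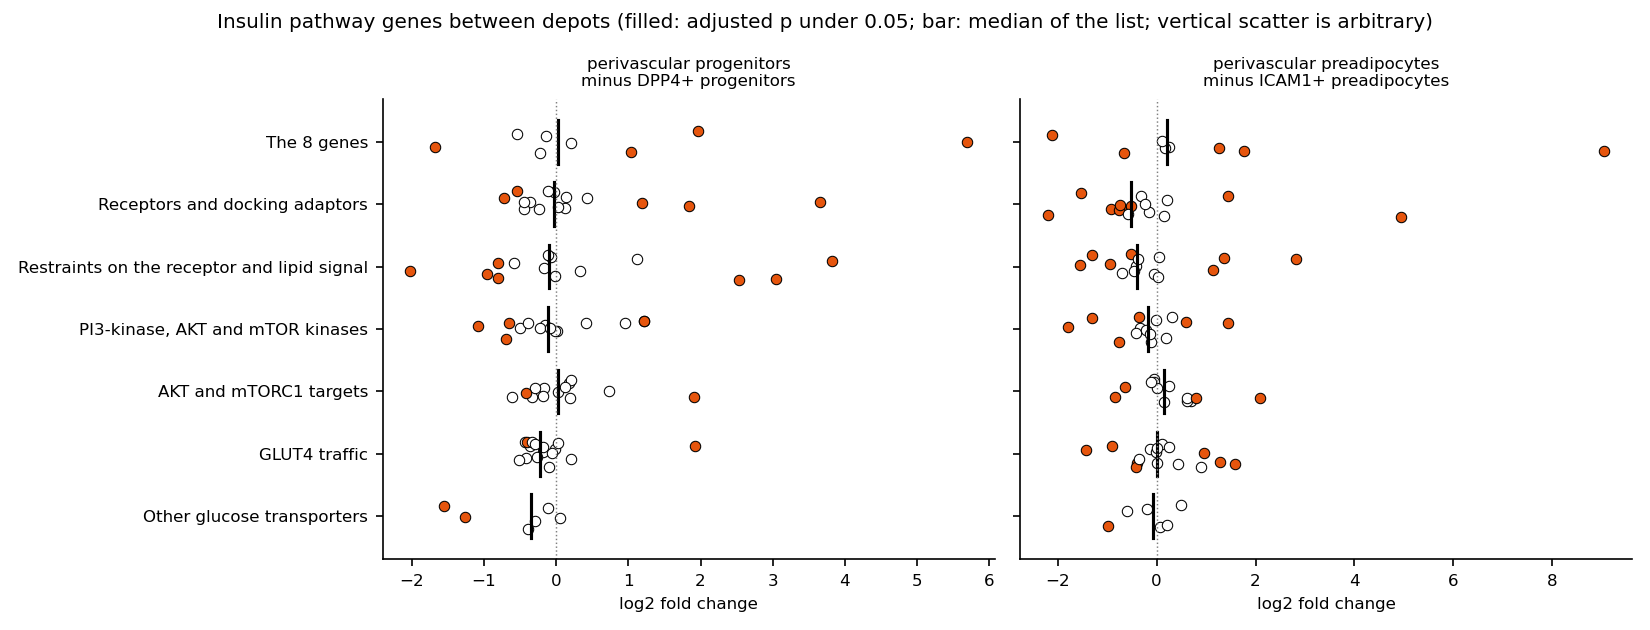
Log2 fold changes between depots of the 8 genes and of 78 other pathway genes in 6 lists, for progenitors (left) and preadipocytes (right), filled where the adjusted p is under 0.05, with a bar at the median of each list; the vertical scatter has no meaning. Irs4 lies farthest to the right in both panels (5.69 and 9.05), and of the other genes Grb14 (3.82) lies farthest from 0 among progenitors and Sh2b2 (4.95) among preadipocytes.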

How the data were processed

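RNA of 12 sorted cell pools was sequenced with a SMART-Seq ultra-low-input kit that selects poly(A) RNA, per the labels' protocols. The submitters' processing notes name STAR 2.5.2a, mm10 and DESeq2 1.26.0. How reads were counted, on which annotation and whether by strand, was not given in the sources used here. Raw counts per gene and library were deposited by the authors, and every test uses this unit. Columns were matched to samples by name, with those headed EarlyProg taken as perivascular progenitors, and 0 were left over. Counts were fitted with edgeR 4.0.16 under R 4.3.3 (filterByExpr, minimum count 10; TMM; glmQLFit and glmQLFTest on 4 group means; two-sided; Benjamini-Hochberg over 18855 genes), and the procedure was tested on simulated data. The p-values measure the spread between pools of mice. The 95% intervals and SE come from that test. Log2 CPM used a prior count of 2. Gene positions and exon lengths are from GENCODE mouse release 21. Counting intervals and floors cover counting error only, since reads carry no molecular identifiers.

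Named are all 8 genes, up to 3 called genes with the largest change per list and comparison, Igf1r, Pik3ca, Akt1, Foxo1, Grb10, Grb14, Tbc1d1 and Slc2a1 whatever their values, and the 3 genes most correlated with each of the 8. Some genes that this rule picks are not reported here. The genes and lists were chosen with earlier results of these data known. The labels say that libraries with the same number share pools of mice, so the numbers pair the samples. Deviations from group means correlated at a median of 0.00931 over 18 same-number pairs and 0.00872 over 36 others. Alternatives were library totals, RLE factors, no filter, a minimum count of 50, DESeq2 1.42.0, limma 3.58.1 voom with quality weights, the replicate block, the 2 groups alone, each library left out and, chosen after seeing the data, the 3 libraries that stood apart left out.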

Additional observations from a re-analysis of the deposited data

Results flagged for a closer look

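Tbc1d4 drew attention because its change from progenitor to preadipocyte differed between the depots. The interaction was 1.79 on the log2 scale (edgeR, adjusted p = 0.00322). All 3 perivascular preadipocyte libraries lay above all 3 perivascular progenitor libraries, and all 3 ICAM1+ libraries below all 3 DPP4+ libraries. Groups did not overlap for 40.8% and 43.8% of all genes in these steps. The group means of several fat cell markers moved the same way, among them Cidec, which encodes a lipid droplet protein. Cidec went from 7.0 to 94.6 CPM in the perivascular step and from 27.7 to 3.41 in the inguinal one. Its interaction was 6.76 (edgeR, adjusted p = 0.00397). At lower levels, Lep went from 0.635 to 5.0 and from 0.862 to 0.186 CPM. Plin5 went from 2.74 to 32.3 and from 0.993 to 0.259, and Cidea from 1.93 to 46.7 and from 0.434 to 0.25. Others rose in both steps, such as Pparg, from 44.8 to 158 and from 14.4 to 73.2 CPM. The DPP4+ libraries varied, at 0.857, 37.1 and 45.2 CPM of Cidec, and library 1 lay below the 2.51 to 4.57 CPM of the ICAM1+ libraries. Of the 7 thermogenic markers, 5 rose in the perivascular step (median log2 3.55), and 0 rose and 0 fell in the inguinal one (-0.25). Of the 4 mast cell markers, 3 rose in the perivascular step (median log2 3.76), and 0 rose and 0 fell in the inguinal one (-0.66). Of the 10 adipocyte markers 9 rose in the perivascular step (median log2 2.78), and 6 rose and 1 fell in the inguinal one (1.69). The part of these markers in the Tbc1d4 difference was not tested.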

How the results depend on the processing

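Of the 32 values of the 8 genes in the 4 depot and stage comparisons, 17 were called, 13 of them under every alternative, and 15 were not called, 7 of them under every alternative. The 4 calls that were lost under some alternative are given beside their results. The replicate block ended 2 calls, that of Tbc1d4 in the inguinal step (-0.73, adjusted p = 0.0506) and that of Insr between perivascular progenitors and ICAM1+ preadipocytes (0.50, adjusted p = 0.0801), and no other call of the 8 genes.

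Under library totals the share of called genes that were higher rose from 52.5 to 83.7% between progenitors, 52.2 to 66.5% between preadipocytes, 51.1 to 66.3% in the perivascular step and 52.0 to 82.6% in the inguinal step, and fell to 23.3% from 42.4% for the interaction. Some values changed sign. Under library totals these were Irs2 (0.29) and Akt2 (0.22) between progenitors, Akt2 in the perivascular (0.17) and inguinal (0.05) steps, Insr in the inguinal step (0.08) and the interaction (-0.15), and Insr (0.56, adjusted p = 0.00867) and Akt2 (0.39, adjusted p = 0.027) between perivascular preadipocytes and DPP4+ progenitors. In the perivascular step Akt2 was 0.10 with limma-voom, 0.02 with the 2 groups alone and -0.13 to 0.04 with each library left out in turn. Over the same single-library omissions, Pik3r1 was 0 to 0.28 between preadipocytes, -0.10 to 0.28 in the perivascular step and -0.08 to 0.21 between perivascular progenitors and ICAM1+ preadipocytes, where it was also -0.03 with no filter and 0 with the replicate block. Irs4 in the inguinal step ranged from -3.94 to 0.65, Irs2 between perivascular preadipocytes and DPP4+ progenitors from -0.03 to 0.34, and the interaction of Slc2a4 from -0.73 to 0.15 and of Insr from -0.06 to 0.14. The interaction of Insr was -0.01 with no filter, and Insr between perivascular preadipocytes and DPP4+ progenitors was 0.01 without the 3 libraries that stood apart.

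Called genes numbered 7548 against 4687 between progenitors under library totals. In the perivascular step (6198) they were 10914 with limma-voom, 2825 with 2 groups alone, 9893 without the 3 libraries and 3916 to 8000 without a library. In the inguinal step (3384) they were 5276 with library totals, 6052 with limma-voom and 5757 with 2 groups alone. Between perivascular progenitors and ICAM1+ preadipocytes (2669) they were 5730 with limma-voom, 4663 without the 3 libraries and 1523 to 3543 without a library. For the interaction (2834) they were 8384 with limma-voom, 7783 without the 3 libraries and 1666 to 5231 without a library. Of the 8 genes, 2 to 5 were called in the inguinal step without a library (2276 to 4292 of all genes). Between perivascular progenitors and ICAM1+ preadipocytes it was 1 to 4 without a library (1523 to 3543 of all genes). Between perivascular preadipocytes and DPP4+ progenitors 4 of the 8 were called at first (10029 of 18855 genes). There, all 8 were called under library totals (11494 of 18855), 6 with limma-voom (12289 of 18855) and 5 without the 3 libraries (10883 of 19396). Without a library it was 4 to 5 (8636 to 10794 of all genes). The interaction called 2 of the 8 with library totals (3099 of 18855 genes), 3 with DESeq2 (3776 of 18796) and 4 with limma-voom (8384 of 18855). It called 2 without the 3 libraries (7783 of 19396) and 1 to 2 without a library (1666 to 5231 of all genes). With a library left out, 19606 to 19942 genes were tested. The cause of these shifts was not tested. With 3 libraries a group, small differences such as those of Insr and Akt2 are limited by the spread between pools.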
